A study of Mus musculus with 6 samples.

Results

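The genes of voltage-gated calcium channels, voltage-gated sodium channels and TRP (transient receptor potential) cation channels were read in MIN6, a mouse insulinoma cell line that makes insulin and stands in for the beta cell of the pancreas. Genes were taken by symbol: Cacna, Cacnb and Cacng for calcium channel subunits, Scn with a number and a or b for sodium channel subunits, and Trpc, Trpm or Trpv with a number. This gave 54 of the 18193 genes that had a probe set with 1 symbol, on 124 probe sets, and the brightest probe set on average over the 6 arrays stood for each gene. The pattern also takes Trpc4ap, which encodes a partner protein of the channel Trpc4, so 53 of the 54 are channel or channel-like subunits. Cacnb3 and Trpv5 were not analysed here.

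The control group had 3 arrays of cells given a scrambled negative control siRNA, and the other group had 3 arrays of cells given an siRNA against mouse Hlxb9, the homeobox transcription factor whose gene symbol is Mnx1. All cells were transfected by nucleofection and with the lipid reagent RNAiMax, and total RNA was taken 72 hours later. RNA went onto arrays only from transfections in which a western blot showed over 75% less Hlxb9 protein, so the arrays were selected on that measurement. The arrays of a group are taken here as separate transfections, and p-values measure the spread between them. All samples come from 1 cell line, in low-glucose medium with serum, and the labels also describe sorted cells without naming a gate.

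When glucose closes the potassium channels of a beta cell, the membrane depolarises, voltage-gated calcium channels open, and the entering calcium triggers the release of insulin granules. A pore-forming alpha1 subunit sets the type of a calcium channel (L, P/Q, N, R or T), while beta, alpha2delta and gamma subunits alter its trafficking and gating. Voltage-gated sodium channels carry fast inward currents, and TRP channels add depolarising currents, some of them opened by calcium itself.

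Signals are on the log2 scale of RMA, a method that corrects background, normalizes between arrays and summarises each probe set, so a difference of 1 is a 2-fold change. Mnx1 read 7.82, 7.50 and 7.77 in the controls and 7.53, 7.41 and 7.28 after Hlxb9 siRNA. The groups overlapped, and the difference of -0.29 ± 0.13 log2 (SE) missed the threshold (adjusted p = 0.659 from limma; exact permutation p = 0.2, two-sided, where 0.1 is the smallest possible). Within the numbers Mnx1 was lower in all 3, with differences of -0.28, -0.09 and -0.49, and with the replicate number as a block its adjusted p was 0.544 (limma). Control replicate 3 stood apart from the other arrays: it correlated with them at 0.988 to 0.991, against 0.995 or higher among the other 5. Its Gapdh signal was higher by 2.13 log2 at the 3′ end than at the 5′ end, a measure of RNA integrity, against 0.65 to 0.78 elsewhere. The label of a beta cell line was checked on markers. The 9 measured beta cell markers averaged between 11.68 and 11.76 on every array. Of these 2 were higher after Hlxb9 siRNA, Ucn3 by 0.59 ± 0.36 log2 (SE) and Slc2a2 by 0.16, and 7 were lower. Among the lower ones the groups did not overlap for Pdx1 (-0.11) and G6pc2 (-0.23), 22.2% of the list, against 17.3% of all genes. At an unadjusted p of 0.05 (limma) there were 0 of the 9. All 5 acinar and all 5 endothelial markers were dim. Gcg and Sst, the hormones of alpha and delta cells, were bright at 13.00 and 13.12 in controls. The duct marker Krt7 was bright too, at 11.74, with the other 3 duct markers dim. Ppy, the hormone of a further islet cell type, went from 8.95 ± 1.42 to 10.09 ± 1.33 (SD). At 1.13 ± 0.81 log2 (SE) its difference was the highest of all genes, where the lowest was -1.16. Ghrl differed by -0.45 ± 0.22. A probe set is called dim here when both group means lie below 5.16, the median of all probe sets. Of the neuronal markers 3 of 6 were dim, and their mean ran from 4.79 to 5.13 in controls and from 4.98 to 5.21 after Hlxb9 siRNA, with 3 markers above 0 (Slc17a6 0.46, Slc17a7 0.34 and the dim Neurod6 0.40) and 3 below, among them Slc32a1 at -0.42 and the dim Rbfox3 at -0.24. Of the immune markers 4 of 5 were dim, and Cd68 went from 6.83 to 7.37. The part of such cells or states in the channel values was not tested, and in bulk RNA fewer cells of a type cannot be told apart from less RNA per cell.

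None of the 54 channel genes passed the test. Over all 45037 probe sets limma called 0 (0%) at an adjusted p of 0.05 and 3430 (7.62%) at an unadjusted p of 0.05, and the channel genes had adjusted p from 0.645 to 0.997. At an unadjusted p of 0.05 there were 3 channel genes, 5.56% of them, against 7.95% of all genes. The 2 higher ones were Trpm5 and Trpm4 (4.21% of all genes were higher at that p), and the lower one was Scn2b (3.74%). The median difference over the channel genes was 0.0078 log2 and that over all genes 0.0023, with 29 channel genes above 0 and 25 below. The split depends on scaling: with each array centred on its median it was 19 above and 35 below, while all genes at an unadjusted p of 0.05 went from 766 higher and 680 lower to 406 and 940, and with repeated quantile normalization it was 26 and 28. Groups did not overlap for 4 channel genes, 7.41%, against 17.3% of all genes: Trpm5 and Trpm4 lay higher (9.55% of all genes) and Scn2b and Trpc7 lower (7.75%). Neither share lay above the share of all genes. Leaving out Hlxb9 siRNA replicate 1 or replicate 2 took the 3 genes at an unadjusted p of 0.05 to 0, while the share over all genes went to 3.74% and 4.06%.

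**Figure D1:**
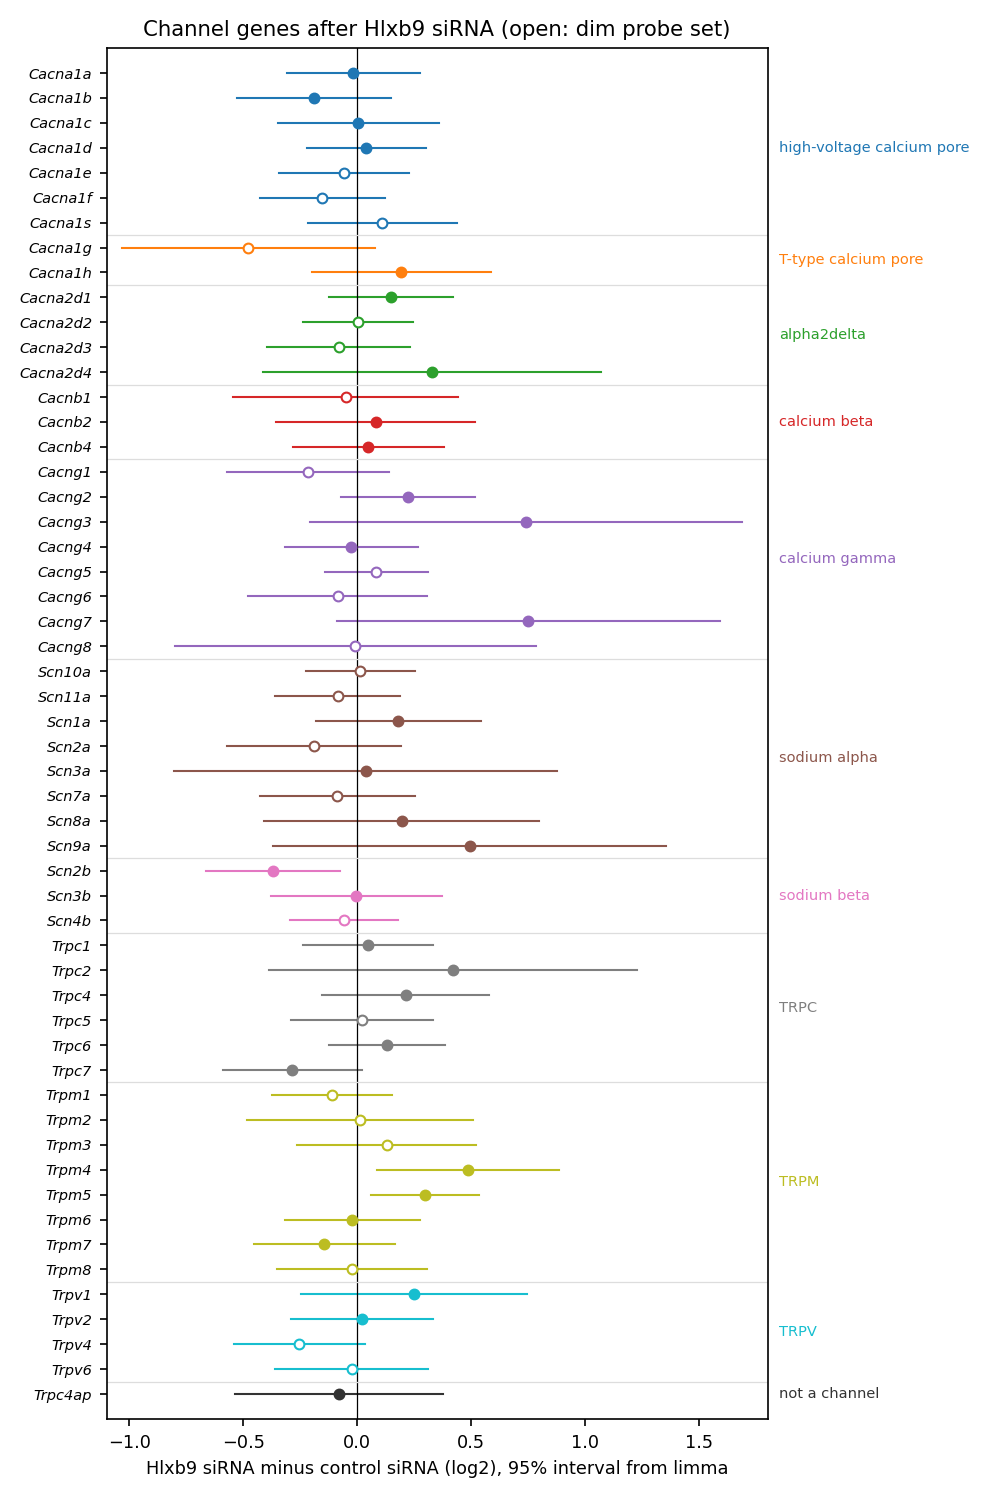
Difference of Hlxb9 siRNA minus control siRNA (log2, horizontal axis) for each of the 54 genes (vertical axis, grouped by family), with limma's 95% interval; filled points are probe sets that were not dim and open points dim ones. The intervals of Trpm4, Trpm5 and Scn2b leave out 0, while those of the other 51 genes include it.

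The precision differed among the genes. For 48 of the 54 the 95% interval lay within 1 log2 of 0 on either side, so a 2-fold difference lay outside it, and for 6 it reached 1 log2 or more. Of the 54 genes, 23 were dim and 31 were not, against 63% of all genes that were not dim. Cacng3 and Scn2b escaped that class through the group with the higher signal alone. Other probe sets existed for 36 genes, and in 13 of these at least 1 of them went the other way by 0.1 log2 or more.

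The TRPM family holds the 2 genes with the higher signal. Trpm5 and Trpm4 encode calcium-activated channels that pass monovalent cations and depolarise the cell, and both are known from beta cells, where Trpm5 takes part in the bursts of electrical activity that glucose evokes. Trpm5 read 9.93, 10.06 and 9.90 in controls and 10.27, 10.31 and 10.18 after Hlxb9 siRNA. Every Hlxb9 siRNA array lay above every control array, and control replicate 2 was the highest control. The difference was 0.30 ± 0.10 log2 (SE), 1.23-fold, at an unadjusted p of 0.0205 and adjusted p = 0.645 (limma). Its second probe set differed by 0.39 ± 0.11 log2, again without overlap, and its other one by 0.12 ± 0.19.

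Trpm4 has 1 probe set. It read 7.94, 8.25 and 7.55 in controls and 8.37, 8.42 and 8.41 after Hlxb9 siRNA. The groups did not overlap, with controls spread over 0.70 log2 and Hlxb9 siRNA arrays within 0.06, and control replicate 3 was the lowest array. The difference was 0.48 ± 0.17 log2 (SE), 1.40-fold, at an unadjusted p of 0.0235 and adjusted p = 0.645 (limma). Without control replicate 3 it stood at 0.30 ± 0.12 log2 (adjusted p = 0.506), and the part of that array's RNA quality in the larger value was not tested. With array weights it was 0.22 ± 0.10 at an unadjusted p of 0.0617 (adjusted p = 0.224, limma). For Trpm5 the value without control replicate 3 was 0.26 ± 0.10 log2.

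Other TRPM genes showed no such separation. Trpm7, a ubiquitous channel fused to a kinase that passes magnesium and calcium, differed by -0.14 ± 0.13 log2 on the probe set that represents it. Its 3 other probe sets, none of them dim, differed by 0.06, 0.23 and 0.65, so the direction of Trpm7 depends on the probe set. The groups did not overlap on the last of them. There control replicate 3 read 7.33, beside 8.42 and 8.32 in the other controls and 8.54 to 8.77 after Hlxb9 siRNA. On the probe set that represents Trpm7 the value was -0.02 without control replicate 3. Trpm6, the epithelial magnesium channel and relative of Trpm7, differed by -0.02. Its dim second probe set differed by -0.36 ± 0.16 and was lower within all 3 numbers. Trpm2, a channel opened by ADP-ribose, and Trpm3, a steroid-gated channel described in beta cells, were dim, at 3.81 and 3.93 in controls, and differed by 0.01 ± 0.21 and 0.13 ± 0.17. All 5 other probe sets of Trpm3 went the other way, from -0.25 to -0.07. Trpm1 and the cold sensor Trpm8 were dim as well.

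**Figure D2:**
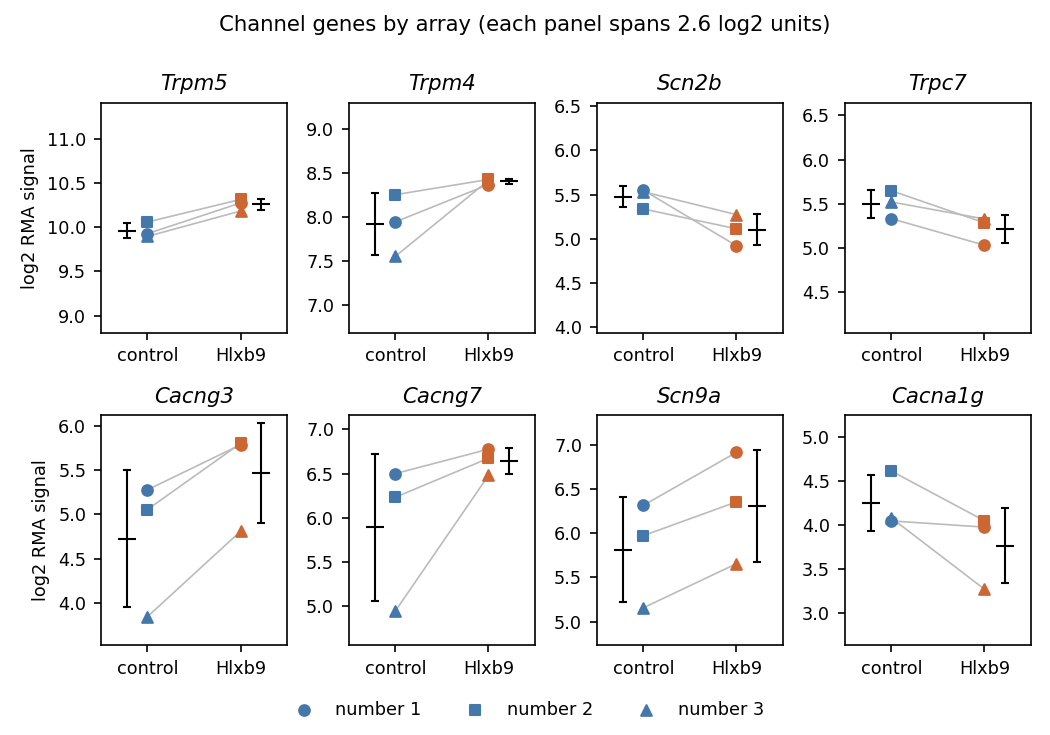
Log2 RMA signal (vertical axis) of 8 channel genes on each array, with control siRNA in blue and Hlxb9 siRNA in orange; marker shapes give the replicate number, grey lines join equal numbers and black bars are mean ± SD over 3 arrays. Trpm5, Trpm4, Scn2b and Trpc7 separate the groups, while in Cacng3, Cacng7 and Scn9a the triangle of control replicate 3 is the lowest point.

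Among sodium channel genes, the accessory beta subunits modify gating and bind to neighbouring cells as adhesion molecules. Scn2b read 5.55, 5.34 and 5.53 in controls and 4.92, 5.11 and 5.28 after Hlxb9 siRNA. Every Hlxb9 siRNA array lay below every control array. The difference was -0.37 ± 0.13 log2 (SE), a level 22.7% lower, at an unadjusted p of 0.0200 and adjusted p = 0.645 (limma). Its signal sat near the median of all probe sets, and its other 2 probe sets, both dim, differed by 0.06 and -0.03. With the mean of the 3 probe sets the value was -0.11, and with an offset of 32 on the linear scale it was -0.20. Scn3b, which has a second probe set at 0.06, differed by -0.0045 ± 0.16 and Scn4b, a dim probe set, by -0.06 ± 0.10.

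The pore-forming sodium channel genes varied between arrays more than between groups. Scn3a and Scn9a are the sodium channels that beta cells of mice are known for. Scn3a read 6.39, 5.76 and 5.38 in controls and 6.42, 6.09 and 5.13 after Hlxb9 siRNA, highest on both arrays numbered 1 and lowest on both numbered 3. Its difference was 0.04 ± 0.36 log2. Scn9a followed the same order over the numbers, at 6.31, 5.97 and 5.16 in controls and 6.91, 6.35 and 5.65 after Hlxb9 siRNA. The groups overlapped, yet within each number the Hlxb9 siRNA array was higher, by 0.60, 0.38 and 0.50. The unpaired difference of 0.49 ± 0.37 log2 had an unadjusted p of 0.222, and with the replicate number as a block the value was 0.49 ± 0.11 at an unadjusted p of 0.00395 (adjusted p = 0.482, limma). This Scn9a probe set carries the suffix _x_at, a mark of probes able to bind related transcripts, and without control replicate 3 the difference was 0.16. Its 4 other probe sets, all dim, differed by -0.08 to 0.27, 3 of them higher and 1 lower. With the mean of its probe sets the value was 0.18.

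Scn8a, the widespread neuronal sodium channel, read 8.96, 9.10 and 8.03 in controls and 8.88, 8.98 and 8.82 after Hlxb9 siRNA. Only control replicate 3 was low, and the difference of 0.20 ± 0.26 log2 became -0.14 without it. The 4 other probe sets of Scn8a differed by -0.10 to 0.19, 2 in each direction. Scn1a differed by 0.18 ± 0.16 and Scn2a, which was dim, by -0.19 ± 0.16, each in the same direction within all 3 numbers. Their other probe sets, all dim, went both ways, from -0.15 to 0.03 for Scn1a and from -0.04 to 0.13 for Scn2a. Scn7a, Scn10a and Scn11a, the last 2 known from pain-sensing neurons, were dim and differed by -0.09, 0.01 and -0.09.

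The Cacng genes had the 2 largest differences of all the channel genes. Their products are of 2 kinds, gamma subunits of muscle calcium channels such as Cacng1, and relatives such as Cacng2, Cacng3 and Cacng7 that are better known as escorts of AMPA glutamate receptors. Cacng7 read 6.50, 6.23 and 4.95 in controls and 6.78, 6.67 and 6.48 after Hlxb9 siRNA. Control replicate 3 lay far below the other 5 arrays, by 1.59 log2, and Hlxb9 siRNA replicate 3 lay just below control replicate 1, so the groups overlapped. The difference was 0.75 ± 0.36 log2 (SE), 1.68-fold, at an unadjusted p of 0.0736 and adjusted p = 0.667 (limma), and 0.28 without control replicate 3. Its dim second probe set differed by 0.09.

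Cacng3 has 1 probe set, on which control replicate 3 was again the lowest array. It read 5.28, 5.05 and 3.84 in controls and 5.79, 5.80 and 4.81 after Hlxb9 siRNA, with both arrays numbered 3 low. The difference was 0.74 ± 0.41 log2 over all arrays and 0.30 without control replicate 3. Within the numbers it was 0.51, 0.75 and 0.97, and the replicate block gave 0.74 ± 0.13 at an unadjusted p of 9.89e-04 (adjusted p = 0.478, limma). Cacng2 read 8.60, 8.51 and 8.24 in controls and 8.74, 8.70 and 8.56 after Hlxb9 siRNA. Here Hlxb9 siRNA replicate 3 fell below control replicate 1, and the difference of 0.22 ± 0.13 stood beside other probe sets at 0.14 and -0.25. The other 5 Cacng genes differed by -0.22 to 0.08, of which 4 were dim.

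**Figure D3:**
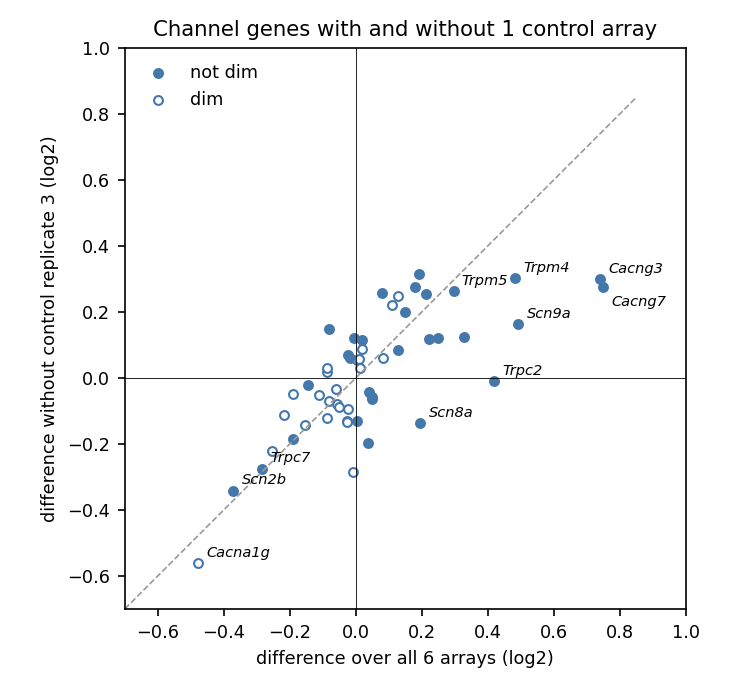
Difference of each channel gene (log2) over all 6 arrays on the horizontal axis and without control replicate 3 on the vertical axis, with equality as a dashed line; open points are dim. Cacng3, Cacng7, Scn9a and Trpc2 fall well below the line, while Trpm5, Scn2b and Trpc7 lie close to it.

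Control replicate 3 was the low array for several channel genes. It was lower than the mean of the other 5 arrays by over 1 log2 for 4 channel genes (Cacng7, Cacng3, Trpc2 and Scn9a), 7.41% of them, against 0.945% of all genes, a contrast that was not tested. It held the lowest value of the 6 arrays for 31.5% of channel genes, against 22.2% of all genes, and the highest for 27.8%, against 35.7%. Without that array, channel genes that differed by 0.4 log2 or more went from 6 to 1, the dim Cacna1g. The 3 genes Trpm5, Trpm4 and Scn2b again made up those at an unadjusted p of 0.05 (5.56%, against 10.2% of all genes).

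The pore subunits of the high-voltage calcium channels, which carry the calcium current of insulin release, differed between the groups by -0.19 to 0.11 log2, and on the probe sets that stand for the 7 genes the groups overlapped. Cacna1d and Cacna1c encode the L-type channels Cav1.3 and Cav1.2. Cacna1c read 9.72, 9.61 and 9.26 in controls and 9.35, 9.58 and 9.68 after Hlxb9 siRNA. The values crossed, with the lowest array in the controls and the next lowest after Hlxb9 siRNA, and the difference was 0.0048 ± 0.15 log2 with a 95% interval from -0.35 to 0.36. A second Cacna1c probe set, also not dim, differed by 0.21 ± 0.11 without overlap. Cacna1d read 9.75, 9.67 and 9.46 against 9.67, 9.71 and 9.62, a difference of 0.04 ± 0.11 with an interval from -0.22 to 0.30.

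Cacna1a, the P/Q-type channel, read 6.58, 6.40 and 6.72 in controls and 6.53, 6.70 and 6.43 after Hlxb9 siRNA, with complete overlap and a difference of -0.02 ± 0.13. Its 3 dim probe sets were lower by more, from -0.34 to -0.12. Cacna1b, the N-type channel of nerve terminals, differed by -0.19 ± 0.14, mostly through Hlxb9 siRNA replicate 3 at 6.87 beside 7.16 or more on the other arrays, and stood at -0.06 without that array. All 3 of its other probe sets were lower as well, from -0.28 to -0.16. On the one at -0.25 ± 0.13, which was not dim, the groups did not overlap. That probe set carries the suffix _x_at, like that of Scn9a. It was lowest on Hlxb9 siRNA replicate 3, at 6.37 beside 6.66 or more on the other arrays. The R-type gene Cacna1e, the retinal Cacna1f and the skeletal muscle Cacna1s were dim, with differences of -0.06, -0.15 and 0.11.

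**Figure D4:**
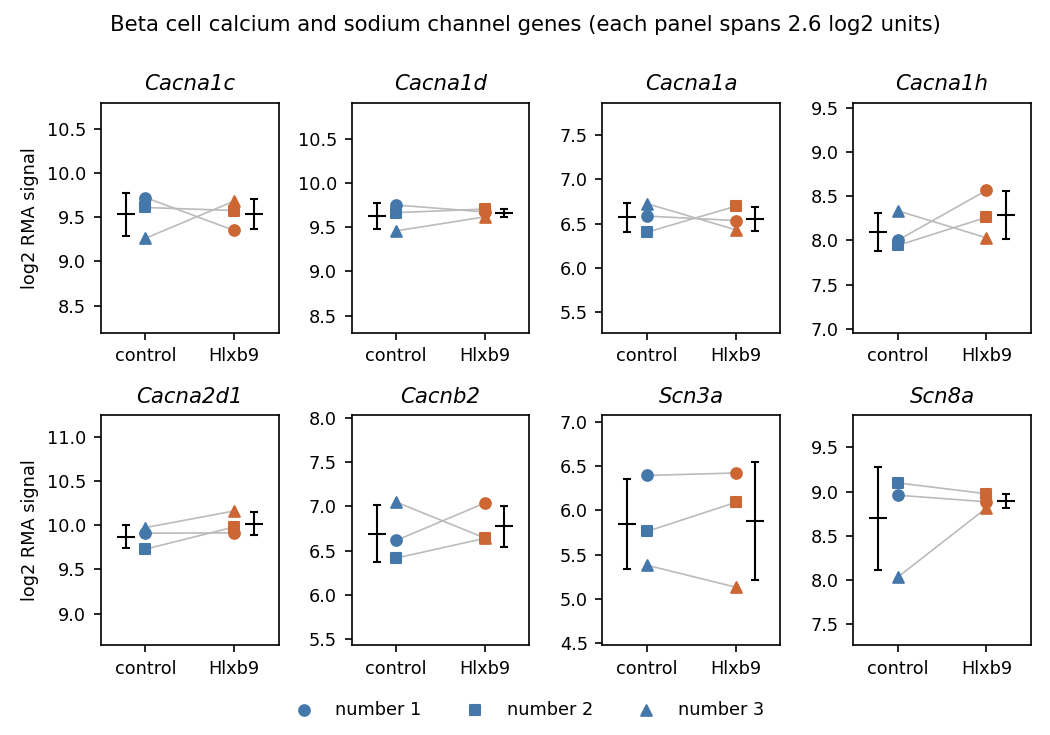
Log2 RMA signal (vertical axis) of 8 calcium and sodium channel genes known from beta cells on each array, with control siRNA in blue, Hlxb9 siRNA in orange, marker shapes for replicate numbers, grey lines between equal numbers and black bars for mean ± SD over 3 arrays. The groups overlap in every panel, and lines cross in Cacna1c, Cacna1d, Cacna1a, Cacna1h, Cacna2d1 and Cacnb2.

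T-type channels open near the resting potential. Cacna1h read 8.00, 7.94 and 8.33 in controls and 8.57, 8.26 and 8.03 after Hlxb9 siRNA. The order reversed at number 3, and the difference was 0.19 ± 0.17 log2, while a second probe set that was not dim differed by -0.36 ± 0.21. The direction of Cacna1h therefore depends on the probe set. Cacna1g, on a dim probe set at 4.25 in controls, differed by -0.48 ± 0.24, the lowest value of the channel genes on the deposited scale. With an offset of 32 on the linear scale it was -0.16, beside -0.20 for Scn2b and -0.16 for Trpc7. It read 4.05, 4.61 and 4.08 in controls and 3.98, 4.05 and 3.27 after Hlxb9 siRNA, where Hlxb9 siRNA replicate 3 was the lowest array and the value without it was -0.23.

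On the probe sets that stand for them, the alpha2delta and beta subunits of calcium channels differed by -0.08 to 0.33 log2. Cacna2d1, the alpha2delta subunit that binds gabapentin and helps channels reach the membrane, read 9.91, 9.73 and 9.97 in controls and 9.91, 9.98 and 10.16 after Hlxb9 siRNA. It was higher within each number, by 0.0046, 0.25 and 0.19, and the overlapping groups differed by 0.15 ± 0.12. Of its 4 other probe sets 3 were also higher, up to 0.33, and 1 was lower by -0.22. Cacna2d4 differed by 0.33 ± 0.32 with a spread of 0.41 and 0.62 (SD) in the groups. Its 2 other probe sets, both dim, differed by -0.03 and 2.7e-05, and the mean of its probe sets by 0.10. The dim Cacna2d3 differed by -0.08 ± 0.13. Cacna2d2 was dim as well and differed by 0.0042, with its 2 other probe sets, both dim, at -0.28 and -0.20. The beta subunits bind the alpha1 subunit inside the cell. They differed by 0.08 ± 0.19 for Cacnb2, 0.05 ± 0.14 for Cacnb4 and -0.05 ± 0.21 for the dim Cacnb1. A dim second probe set of Cacnb2 differed by -0.07, and the 2 others of Cacnb4 by -0.08 (not dim) and -0.12. The 3 other probe sets of Cacnb1, all dim, ran from -0.28 to 0.09, without overlap at -0.28.

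TRPC channels open downstream of phospholipase C. Trpc7 read 5.33, 5.65 and 5.52 in controls and 5.03, 5.29 and 5.33 after Hlxb9 siRNA. The Hlxb9 siRNA arrays all lay below the controls, though Hlxb9 siRNA replicate 3 and control replicate 1 both round to 5.33. The difference was -0.29 ± 0.13 log2 at an unadjusted p of 0.0623 (adjusted p = 0.664, limma), and with the replicate block the unadjusted p was 0.0392. Trpc1, widely expressed, differed by 0.05 ± 0.12, Trpc4 by 0.21 ± 0.16 with its 2 other probe sets at 0.17 and 0.20, and Trpc6 by 0.13 ± 0.11. Trpc2, a channel of pheromone sensing in mice, read 6.49, 6.01 and 4.96 in controls and 6.47, 6.09 and 6.17 after Hlxb9 siRNA. Control replicate 3 alone was low, and the difference of 0.42 ± 0.35 was -0.01 without that array.

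Of the TRPV channels, Trpv1, the capsaicin receptor, read 8.15, 8.63 and 8.00 in controls and 8.60, 8.78 and 8.15 after Hlxb9 siRNA. The groups overlapped while each number was higher after Hlxb9 siRNA, by 0.46, 0.15 and 0.15, and the difference was 0.25 ± 0.21. Trpv2 differed by 0.02 ± 0.13. Trpv4, an osmosensitive channel, and Trpv6, an epithelial calcium channel, were dim and differed by -0.26 ± 0.12 and -0.03 ± 0.14. Trpc4ap differed by -0.08 ± 0.20.

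The arrays of equal number tended to deviate from their group means together, weakly over all probe sets and more over the channel genes. The comparison was therefore also made within numbers. All 3 numbers went one way for 20 channel genes, 37.0%, against 35.5% of all genes, 11 of them higher (19% of all genes) and 9 lower (16.5%). With the replicate number as a block, 8 channel genes had an unadjusted p under 0.05, 14.8%, against 9.19% of all genes, and 0 passed (smallest adjusted p = 0.478, limma). The higher ones were Cacng3, Cacng7, Scn9a, Trpm4 and Trpm5, and the lower ones Cacna1g, Scn2b and Trpc7. Without both arrays numbered 3, a choice made after seeing the data, the block gave 13 (24.1%, against 14.2% of all genes). Array weights gave 13 as well, against 24.6% of all genes. Those weights called 1132 probe sets (2.51%) at an adjusted p of 0.05. Of the probe sets that stand for the channel genes 0 were called (smallest adjusted p = 0.0739, limma). Other probe sets of these genes were not checked under the weights. Whether the members' shares differ from those of all genes was not tested.

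The promoter table used here, from RefSeq (GRCm38.p6), gave 59 windows of the 250 bases before a start site for 45 of the 54 genes. Trpm4 was not among them. Homeobox factors bind short AT-rich sites, so the windows were searched for TAATTA, which reads alike on both strands. It occurred in 1 of the 59 windows, 1.69%, against 4.84% of 32851 promoters of all genes. The one match was at Trpm8, a dim gene with a difference of -0.02. The 3 windows printed here without a match are those of Trpm5 (chr7:143094643-143094892, minus strand), higher on 2 of its probe sets without overlap, of Scn2b (chr9:45117626-45117875, plus strand), the lower gene at an unadjusted p under 0.05, and of Cacng7 (chr7:3332575-3332824, plus strand), the largest difference. A stretch of 60 bases around the match at Trpm8 (chr1:88306513-88306572, plus strand) has the motif in capitals.
Trpm5: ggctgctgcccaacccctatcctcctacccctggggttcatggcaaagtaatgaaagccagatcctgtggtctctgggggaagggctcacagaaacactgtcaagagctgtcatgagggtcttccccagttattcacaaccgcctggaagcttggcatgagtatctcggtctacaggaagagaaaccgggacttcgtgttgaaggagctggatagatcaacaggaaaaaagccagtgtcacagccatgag
Scn2b: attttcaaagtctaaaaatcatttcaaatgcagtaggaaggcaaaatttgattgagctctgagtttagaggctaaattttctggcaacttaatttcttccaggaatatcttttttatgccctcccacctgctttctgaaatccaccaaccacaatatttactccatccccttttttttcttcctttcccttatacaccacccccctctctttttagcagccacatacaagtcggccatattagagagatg
Cacng7: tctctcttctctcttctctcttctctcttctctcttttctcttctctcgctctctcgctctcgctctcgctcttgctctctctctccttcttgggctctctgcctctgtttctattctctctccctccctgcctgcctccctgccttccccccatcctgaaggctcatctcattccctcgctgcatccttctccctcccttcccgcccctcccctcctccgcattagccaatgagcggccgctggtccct
Trpm8: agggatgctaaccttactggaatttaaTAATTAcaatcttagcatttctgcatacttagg

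Other genes of calcium entry, storage and removal were read from a list of 56, of which 47 were measured. The median was -0.01 log2 with 22 genes above 0 and 25 below, and 3 had an unadjusted p under 0.05, 6.38%, against 7.95% of all genes. All 3 were higher and 0 passed over all probe sets (limma). Trpa1, an irritant-sensing TRP channel, differed by 0.43 ± 0.11, from 4.12 ± 0.06 in controls to 4.55 ± 0.13 (SD, 3 arrays each) on a dim probe set. Fgf11, a relative of growth factors that stays inside the cell and binds sodium channels, differed by 0.49 ± 0.18 and was dim. Stac2, an adaptor of L-type calcium channels, differed by 0.32 ± 0.12, from a control mean of 5.12 that lies below the limit for dim probe sets to 5.44.

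Other genes of sodium leak and calcium stores differed by -0.29 to 0.60 log2. Nalcn, the sodium leak channel, differed by -0.12 ± 0.11 and its partner Unc80 by 0.20 ± 0.09, with all Hlxb9 siRNA arrays above the controls, while Unc79, a further partner on a dim probe set, differed by -0.29 ± 0.13 and was lower within all 3 numbers. The calcium pump of the endoplasmic reticulum Atp2a2 differed by -0.08 ± 0.10 and the plasma membrane channel Orai1 by 0.12 ± 0.15. The store sensor Stim1 differed by 0.20 ± 0.25, with control replicate 3 lowest at 6.18 beside 6.86 or more on the other arrays. Within numbers Stim1 differed by -0.09, -0.0031 and 0.68. Ryr2 and Ryr3, calcium release channels, differed by 0.14 ± 0.23 and 0.60 ± 0.47, Ryr3 with overlapping groups and a higher value within all 3 numbers. For Ryr2 control replicate 3 was the lowest array, at 6.32 beside 6.82 or more, and the differences within numbers were -0.23, 0.15 and 0.49. Rem2, an inhibitor of calcium channels that is induced by glucose in beta cells, differed by -0.15 ± 0.13.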

How the data were processed

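The authors deposited 1 table of log2 signals for 45101 probe sets on 6 arrays. The submitters' processing notes list RMA and Partek, with no role for either (settings: not given in the sources used here). After 64 control probe sets were set aside, 45037 remained. Gene symbols came from the platform annotation: 34945 probe sets have 1 symbol, 932 several and 9160 none. All 54 members matched RefSeq (GRCm38.p6) by Entrez identifier, with 0 symbols changed.

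Groups were compared with limma (3.58.1, R 4.3.3, statmod 1.5.0), lmFit and eBayes, no covariate, two-sided, with p-values adjusted by Benjamini-Hochberg across the 45037 probe sets (threshold 0.05). SE is limma's moderated standard error. The script was tested on simulated data. Array signals give no read depth, and 3 arrays a group limit the precision. The members and lists were chosen with earlier results of these data known.

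All members are accounted for. Named were up to 3 per family with the smallest p, those at an unadjusted p under 0.05, and a set known from beta cell excitability. This named 39. The other 15, a few of them also mentioned with their family after their values were seen, differed by -0.22 to 0.13.

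Replicate numbers are shared by the groups. Deviations correlated between equal numbers with r of 0.155, 0.165 and 0.202 over all probe sets. Between unequal numbers r ran from -0.206 to 0.072. Deviations from a group mean sum to 0, so these r are not independent of each other. On these correlations, weak over all probe sets, arrays of equal number were treated as pairs, a reading of the values that no label states. The alternatives were a replicate block, centring, repeated quantile normalization, an offset of 32, leaving out dim probe sets, a trend with robust prior, array weights, leaving out each array, and other choices of probe set.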

Additional observations from a re-analysis of the deposited data

How the results depend on the processing

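On the values that stood for the genes in each setting, no channel gene passed an adjusted p of 0.05 in any of the 16 alternatives. The channel genes at an unadjusted p under 0.05, 2 higher and 1 lower over all arrays, became 5 and 3 with the replicate block, and 7 and 6 with array weights, which called 1132 probe sets and under which Trpm4 (0.22, unadjusted p 0.0617) was no longer among them. The lower ones became 3 when arrays were centred, 2 after repeated quantile normalization and 2 with the mean of probe sets. In either direction, the shares of channel genes were then 9.26%, 7.41% and 7.41%, against 7.40%, 7.33% and 7.76% of all genes. Leaving out 1 array at a time gave 0 to 4 higher and 0 to 1 lower, and 0 of each without Hlxb9 siRNA replicate 1 or replicate 2. It gave 4 higher without control replicate 1 or Hlxb9 siRNA replicate 3. In either direction that was 9.26% of channel genes each time, against 9.52% and 7.35% of all genes. The replicate block without both arrays numbered 3, a choice made after seeing the data, gave 11 and 2. Genes whose groups did not overlap, 2 higher and 2 lower, ranged from 2 to 9 and from 2 to 6 with 1 array left out. In either direction that was 5 to 15 of the 54, against 22.8% to 32.3% of all genes. Without both arrays numbered 3, where fewer arrays make separation easier, 17 channel genes lay higher and 8 lower. Those are 25 of the 54, against 49.8% of all genes. After repeated quantile normalization the lower ones stood at 1. The median over the channel genes was 0.080 without dim probe sets. Genes of the calcium list at an unadjusted p under 0.05, 3 of 47 over all arrays, were 5 with the offset of 32, against 10.9% of all genes. Without dim probe sets there was 1 (Stac2, kept through the Hlxb9 siRNA group alone), against 9.15%. Array weights gave 11 of the 47, against 24.6% of all genes. The block without both arrays numbered 3 gave 9, against 14.2%. With 1 array left out the list had 1 to 6, against 3.74% to 10.2% of all genes. The median of that list was -0.065 with centred arrays, which shift the median of all genes to -0.05. Other causes were not tested.

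Of 611 alternatives for the 39 named genes, 541 kept direction and side of the threshold and 70 turned the sign, 30 of them by leaving out 1 array. In 20 genes no sign turned, among them Trpm5, Trpm4, Scn2b, Trpc7, Cacng3, Cacng7, Scn9a and Cacna1g. Signs turned with centred arrays in Cacna1c (-0.047), Cacna1d (-0.012), Cacnb4 (-0.0039), Scn3a (-0.016), Trpc1 (-0.0037), Trpm2 (-0.041) and Trpv2 (-0.032). Repeated quantile normalization turned Cacna1c (-0.021), Cacnb4 (-0.040), Scn3a (-0.045), Trpv2 (-0.056) and Trpv6 (0.014), and the offset of 32 turned Trpm2 (-0.0055). Array weights turned Cacna1a (0.18), Cacna1c (-0.054), Cacna2d3 (0.033), Cacnb1 (0.29), Scn8a (-0.11), Scn3b (0.17) and Trpm2 (-0.32). The mean of probe sets turned Cacna1d (-0.052), Cacna1e (0.026), Cacna1h (-0.084), Cacnb4 (-0.052), Scn3a (-0.013), Scn3b (0.029), Trpm2 (-0.030), Trpm3 (-0.10) and Trpm7 (0.20), and probe sets with a plain suffix turned Cacna1h (-0.36). The block without both arrays numbered 3 turned Cacna1a (0.12), Cacna1c (-0.20), Cacna1d (-0.019), Cacna2d3 (0.065), Cacnb1 (0.058), Cacnb4 (-0.067), Scn8a (-0.099), Scn3b (0.25), Trpc1 (-0.060) and Trpm2 (-0.014). With 1 array left out at a time, values ran from -0.13 to 0.031 for Cacna1e, -0.22 to 0.15 for Cacnb1, -0.23 to 0.21 for Trpm2, -0.10 to 0.12 for Trpv2, -0.059 to 0.26 for Cacnb2, -0.23 to 0.41 for Scn3a, -0.13 to 0.10 for Trpv6, -0.10 to 0.060 for Cacna1a, -0.13 to 0.10 for Cacna1c, -0.043 to 0.10 for Cacna1d, -0.064 to 0.14 for Cacnb4, -0.14 to 0.40 for Scn8a, -0.095 to 0.13 for Scn3b, -0.058 to 0.13 for Trpc1, -0.010 to 0.75 for Trpc2, -0.0020 to 0.26 for Trpm3 and -0.16 to 0.053 for Cacna2d3. Dim genes could not be fitted without dim probe sets. Arrays left out 1 at a time leave 2 in a group, and 3 a group limit every value.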
